A study of Mus musculus with 16 samples.

Results

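The genes described here are 10 that copy chromatin and its DNA methylation behind the replication fork or package the nucleus of a growing cell: Dnmt1, Uhrf1, Hells, Chaf1a, Asf1b, Ezh2, H2afz, H2afx, Hmgb2 and Lmnb1. They were taken from a fixed list of symbols, and all 10 were found among the 54838 gene identifiers of Ensembl release 95. Their polyadenylated RNA was measured by sequencing in 16 liver samples of wild-type male C57BL/6J mice, whose age is not given in the sources used here. The CCl4 group (n = 3) had received an intraperitoneal injection of 2 µl per g body weight of carbon tetrachloride mixed with olive oil in equal volumes, and the olive oil group (n = 3) the same volume of olive oil. Both were sampled 3 days later. The PH day 3 group (n = 5) was liver taken 3 days after partial hepatectomy, the surgical removal of part of the liver, and the PH day 0 group (n = 5) was the liver removed at that surgery. No sham-operated group was analysed here. Whether each sample is a different animal is not stated in the labels, and the p-values therefore rest on the spread from sample to sample, which may be technical.

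When DNA is replicated, the new strand lacks methyl groups, and UHRF1 recognises these hemimethylated sites and brings the maintenance methyltransferase DNMT1 to them, while the remodeller HELLS opens compact chromatin for that reaction. ASF1 and the CAF-1 complex hand newly made histones to the daughter strands, and the Polycomb enzyme EZH2 writes the repressive mark on lysine 27 of histone H3. Hepatocytes of an adult liver rarely divide, but re-enter the cell cycle after toxic injury or loss of tissue, which is the question both experiments share.

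Total counts were 4738196 to 6218526 per sample in the CCl4 group and 4295169 to 5221957 in the olive oil group. They were 2795909 to 4391002 in the PH day 3 group and 3271398 to 8647503 in the PH day 0 group. Single-sample counts of the 10 genes ran between 0 and 315, so their precision is that of low counts. CCl4 replicate 1 stood apart, with a chi-square per degree of freedom of 71.7 and 72.3 against CCl4 replicates 2 and 3, which gave 8.97 against each other. The hepatocyte markers summed to 97144 to 134658 CPM in the CCl4 group and 118849 to 128156 CPM in the olive oil group. They summed to 115665 to 138678 CPM in the PH day 3 group and 93937 to 112114 CPM in the PH day 0 group. Levels of a gene across samples are CPM (counts scaled to the library total) adjusted by the trimmed mean of M values (TMM), and changes are log2 fold changes ± SE called at an adjusted p under 0.05. Of the 10 hepatocyte markers, 0 were called higher and 1 lower after CCl4 (11.3% and 11.6% of all genes tested). After partial hepatectomy 1 was called higher and 3 lower (9.73% and 8.01% of all genes tested).

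The promoters of some of the genes are shown here as a description of their sequence. E2F factors, which bind such letters in many genes of the S phase, were searched for as TTTCCCGC, TTTGGCGC, TTTCGCGC or TTTGCCGC on both strands. RefSeq windows of 250 bases before to 50 after a transcript start (GRCm38.p6) were found for 8 of the 10 genes, 11 windows in all. E2F letters were in a window of 4 genes, against 2.26% of the 32851 windows of that length. Dnmt1 and Uhrf1 had 3 and 2 windows and so more chances of a match, and the first window of each held none. In the stretches below, written 5′ to 3′, capitals mark the E2F letters and CCAAT boxes, read on either strand, and the stretches of Dnmt1 and Ezh2 were kept to 30 bases because they lie wholly within annotated exons.
Dnmt1 (chr9:20952835-20952864, minus strand): ccctcCCAATTGGtttccgcgcGCGCGAAA
Uhrf1 (chr17:56304063-56304322, plus strand): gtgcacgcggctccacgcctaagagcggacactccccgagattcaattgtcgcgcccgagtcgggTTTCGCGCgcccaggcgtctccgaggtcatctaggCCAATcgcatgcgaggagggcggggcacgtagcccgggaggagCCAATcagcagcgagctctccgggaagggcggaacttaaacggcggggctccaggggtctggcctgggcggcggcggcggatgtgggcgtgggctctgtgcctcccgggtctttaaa
Hells (chr19:38930740-38930944, plus strand): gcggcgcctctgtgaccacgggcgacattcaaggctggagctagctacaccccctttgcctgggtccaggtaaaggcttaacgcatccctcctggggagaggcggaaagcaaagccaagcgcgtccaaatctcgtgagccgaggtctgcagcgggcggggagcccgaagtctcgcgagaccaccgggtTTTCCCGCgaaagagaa
Ezh2 (chr6:47595020-47595049, minus strand): cgatggcgATTGGgttgctgcgTTTGGCGC
A CCAAT box was in a window of 7 of the 8 genes, against 37.4% of all windows, and the CHR letters TTTGAA in a window of 3, against 17.9%. These are matches of letters and not measured binding, and a link to the responses of the genes was not tested.

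Of the 10 genes, 9 rose after CCl4 and none fell, with a median log2 fold change of 2.71, beside a median of 0.01 over the 11337 genes tested, of which 11.3% were called higher and 11.6% lower. In these 9 genes each CCl4 sample lay above each olive oil sample, which held for 21.8% of all genes tested. After partial hepatectomy 7 of the 10 genes passed the filter on low counts, and these 7 were called higher, with a median of 1.17 beside -0.01 over the 10546 genes tested, of which 9.73% were called higher and 8.01% lower. Genes pass that filter more readily where one group is high, so these 7 do not speak for all 10. Fitted without it, Hells, Asf1b and Hmgb2, which did not pass, had log2 fold changes of 2.66, 3.42 and 2.00, all above 1.17. After CCl4 all 10 genes passed it, although Uhrf1, Hells, Hmgb2 and Asf1b held fewer than 10 counts in each olive oil sample. Without the filter 9 of the 10 genes were called higher after CCl4, beside 8.45% of all genes tested. Samples of PH day 3 lay above all samples of PH day 0 in 8 of the 10 genes, against 6.5% of all genes tested. The 8 include Hells and Asf1b, which did not pass the filter, whereas the share is over genes that did. In bulk tissue, fewer cells of a type and less RNA per cell cannot be told apart.

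**Figure D1:**
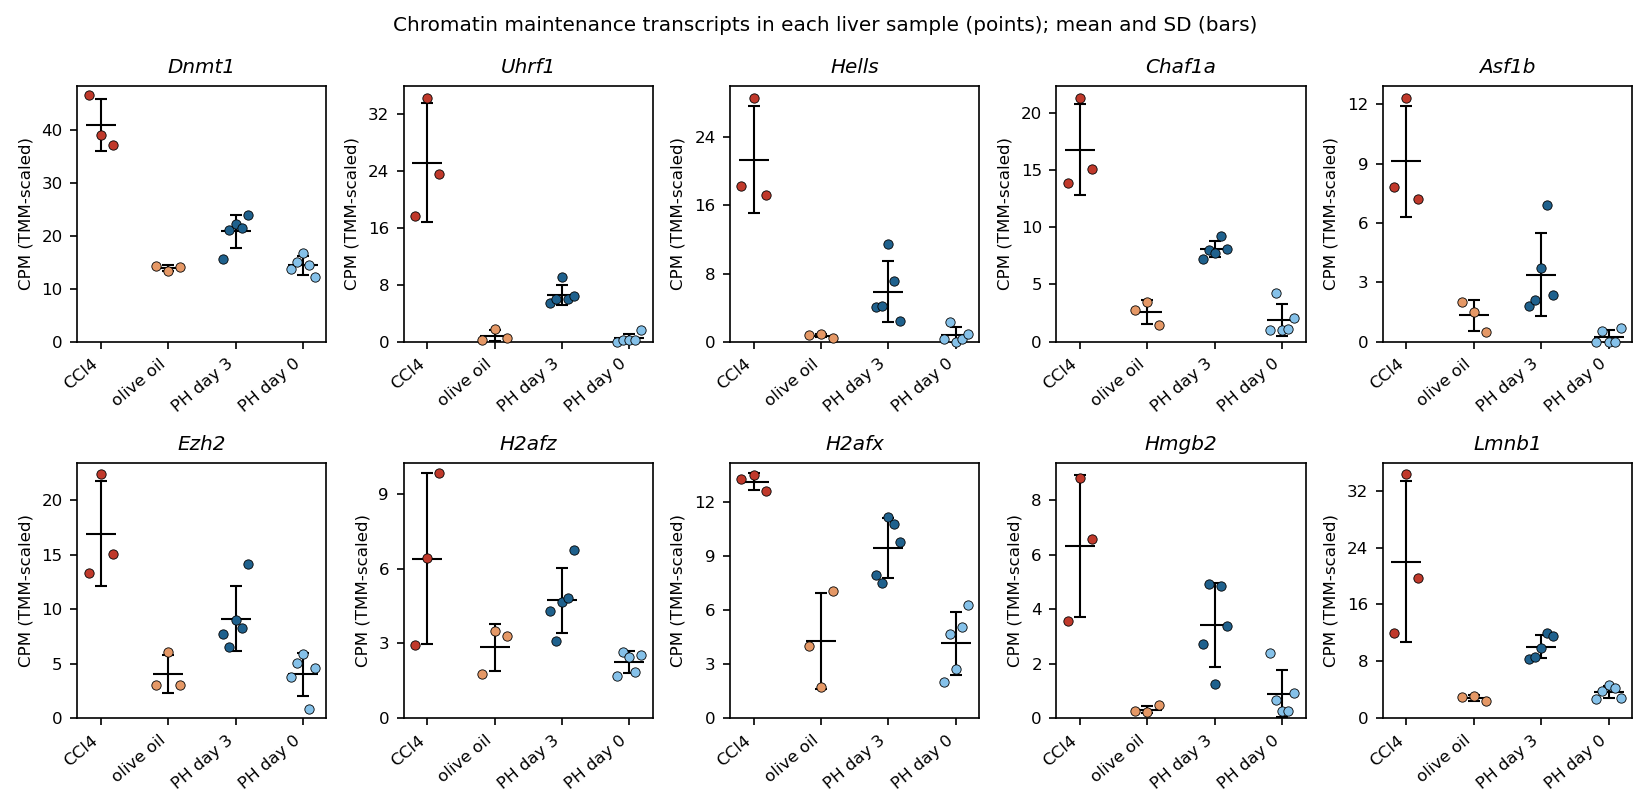
TMM-scaled CPM of the 10 genes on the y axis by group on the x axis, with a point per sample and bars for the mean and SD. The CCl4 samples are the highest on average in each panel, PH day 3 samples come next, and the olive oil and PH day 0 samples overlap in all 10 panels.

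The maintenance methyltransferase Dnmt1 (ENSMUSG00000004099, chr9:20907209-20959888, minus strand, GRCm38) was the most expressed of the genes in CPM. It had 46.5, 39.0 and 37.1 CPM in CCl4 livers, against 14.3, 13.3 and 14.1 CPM in olive oil livers. The groups did not overlap, and Dnmt1 rose by a log2 fold change of 1.53 ± 0.17 (adjusted p = 0.00029). Day 3 livers 12 to 16 had 15.6, 21.0, 22.1, 21.4 and 23.9 CPM, against 15.1, 16.8, 14.4, 12.1 and 13.6 CPM in day 0 livers 12 to 16. Here the groups overlapped, since day 3 replicate 12 was below day 0 replicate 13. The log2 fold change was 0.55 ± 0.17 (adjusted p = 0.024), and the call was lost without day 3 replicate 16 (adjusted p = 0.063) or without day 0 replicate 15 (adjusted p = 0.067).

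Uhrf1 (ENSMUSG00000001228, chr17:56303321-56323486, plus strand), whose protein reads hemimethylated DNA and the tail of histone H3, had a higher log2 fold change than Dnmt1 in both experiments. It had 17.7, 34.2 and 23.6 CPM in CCl4 livers, against 0.251, 1.74 and 0.471 CPM in olive oil livers, which together held 11 reads of the gene. CCl4 replicate 2 was the highest of the 16 samples, and the CCl4 and olive oil groups did not overlap. Uhrf1 rose by 4.83 ± 0.49 after CCl4 (adjusted p = 0.0002). Day 3 livers 12 to 16 had 5.43, 5.97, 9.01, 5.98 and 6.41 CPM, against 0.267, 0.247, 0.266, 1.62 and 0 CPM in day 0 livers 12 to 16. All 5 day 3 samples were above all 5 day 0 samples, and the zero in day 0 replicate 16 allows up to 1.02 CPM (3 counts, counting error only). The log2 fold change was 3.68 ± 0.51 (adjusted p = 1e-05), and a pseudogene shares 1590 bases with the gene at 95% identity or more.

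Hells (ENSMUSG00000025001, chr19:38930915-38971051, plus strand) encodes the remodelling ATPase also called LSH. It had 18.3, 28.6 and 17.2 CPM in CCl4 livers, against 0.752, 0.87 and 0.471 CPM in olive oil livers. Its log2 fold change of 4.87 ± 0.39 (adjusted p = 4.7e-05) was the highest of the 10 genes after CCl4. In day 3 livers 12 to 16 it had 4.08, 4.15, 11.5, 7.13 and 2.36 CPM, against 2.27, 0, 0.266, 0.927 and 0.339 CPM in day 0 livers 12 to 16. Those groups did not overlap, although day 3 replicate 16 was only just above day 0 replicate 12. Hells did not pass the filter in the PH comparison. Its mean log2(CPM + 1) was 2.62 on day 3 and 0.68 on day 0, a difference of 1.94 (exact permutation p = 0.0079, two-sided, the smallest that 5 against 5 unpaired samples can give).

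Chaf1a (ENSMUSG00000002835, chr17:56040439-56072289, plus strand), the large subunit of the histone chaperone CAF-1, had 13.9, 21.3 and 15.1 CPM in CCl4 livers, against 2.76, 3.48 and 1.41 CPM in olive oil livers. Its log2 fold change was 2.68 ± 0.35 (adjusted p = 0.00067). Day 3 livers 12 to 16 had 7.25, 8.04, 7.77, 9.2 and 8.09 CPM, against 4.27, 0.989, 1.07, 2.09 and 1.02 CPM in day 0 livers 12 to 16. The day 3 values were close together and the groups did not overlap. Chaf1a rose by 1.96 ± 0.36 after partial hepatectomy (adjusted p = 0.0004). The gene overlaps Ubxn6 on the opposite strand, and the counting used strand.

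Asf1b (ENSMUSG00000005470, chr8:83955507-83970197, plus strand) encodes the form of the histone chaperone ASF1 that is tied to dividing cells. It had 7.79, 12.3 and 7.22 CPM in CCl4 livers, against 2.01, 1.52 and 0.471 CPM in olive oil livers, and rose by 2.74 ± 0.49 (adjusted p = 0.003). On PH day 3, livers 12 to 16 had 1.81, 2.08, 3.73, 6.9 and 2.36 CPM, against 0.533, 0, 0, 0.695 and 0 CPM in day 0 livers 12 to 16. The groups did not overlap in either experiment, and the zeros allow up to 0.741, 0.799 and 1.02 CPM in day 0 replicates 13, 14 and 16. Asf1b did not pass the filter in the PH comparison. Its mean log2(CPM + 1) was 2.02 on day 3 and 0.28 on day 0, a difference of 1.74 (exact permutation p = 0.0079, two-sided).

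**Figure D2:**
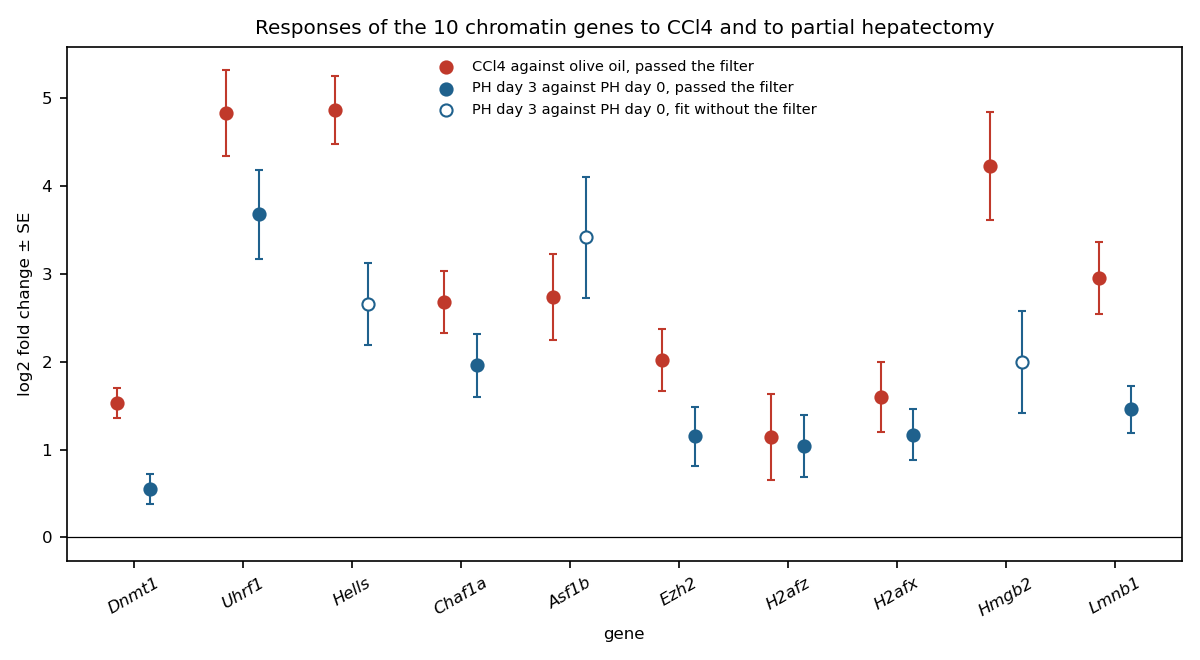
The log2 fold change (y axis, bars are ± SE) of each gene (x axis) after CCl4 against olive oil and on PH day 3 against PH day 0. Open circles are Hells, Asf1b and Hmgb2, fitted without the filter on low counts; all points lie above 0, between 0.55 for Dnmt1 after partial hepatectomy and 4.87 for Hells after CCl4.

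Ezh2 (ENSMUSG00000029687, chr6:47530139-47595341, minus strand), the methyltransferase of Polycomb repressive complex 2, averaged 16.9 ± 4.85 CPM in CCl4 livers and 4.05 ± 1.76 CPM in olive oil livers (SD, n = 3 each). It rose by 2.02 ± 0.35 (adjusted p = 0.0026), with no overlap. On PH day 3 it ran between 6.49 and 14.2 CPM, with a median of 8.28, against 0.799 to 5.93 CPM on PH day 0, with a median of 4.64. The groups did not overlap, and replicate 16 was the highest day 3 sample. The log2 fold change was 1.15 ± 0.34 (adjusted p = 0.021), and the call was lost without that sample (adjusted p = 0.08).

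The histone variants had log2 fold changes between 1.04 and 1.6 over both experiments. H2afx (ENSMUSG00000049932, chr9:44334694-44336077, plus strand), whose protein is phosphorylated at DNA breaks, had 13.3, 13.5 and 12.6 CPM in CCl4 livers, against 4.01, 1.74 and 7.07 CPM in olive oil livers. The CCl4 values lay close together, the olive oil values were scattered, and the groups did not overlap. H2afx rose by 1.6 ± 0.40 (adjusted p = 0.017), a call lost without CCl4 replicate 2 (adjusted p = 0.054) or olive oil replicate 1 (adjusted p = 0.075). Between 7.52 and 11.2 CPM on PH day 3, against 2.03 to 6.26 CPM on PH day 0, it rose by 1.17 ± 0.29 without overlap (adjusted p = 0.0056). Stretches of up to 203 bases at 95% identity or more lie in 18 other genes, 1 of them a pseudogene. Reads that map to several places were not counted, so the H2afx level is uncertain.

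H2afz (ENSMUSG00000037894, chr3:137864487-137866922, plus strand), which encodes the variant H2A.Z found at promoters, was the gene not called after CCl4. It had 2.95, 6.44 and 9.85 CPM in CCl4 livers, against 1.76, 3.48 and 3.3 CPM in olive oil livers. CCl4 replicate 1 lay within the olive oil range. The log2 fold change was 1.14 ± 0.49 (adjusted p = 0.12), and 1.46 without that sample (adjusted p = 0.019). On PH day 3 it had 3.11 to 6.74 CPM, against 1.69 to 2.67 CPM on PH day 0, with no overlap and a log2 fold change of 1.04 ± 0.35 (adjusted p = 0.039). That call was lost in 14 of 19 alternatives, with adjusted p of up to 0.11. Near copies at 95% identity or more lie in 6 other genes, 4 of them pseudogenes, and reads that map to several places were not counted, so its level is uncertain.

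Hmgb2 (ENSMUSG00000054717, chr8:57511907-57515999, plus strand), a DNA-bending protein of proliferating cells, had 3.58, 8.8 and 6.56 CPM in CCl4 livers, against 0.251, 0.218 and 0.471 CPM in olive oil livers, which held 4 reads of it together. It rose by 4.23 ± 0.62 (adjusted p = 0.0011), with no overlap. On PH day 3 it ran between 1.24 and 4.93 CPM, against 0.247 to 2.37 CPM on PH day 0. The groups overlapped, because day 0 replicate 16 was above day 3 replicate 14. Hmgb2 did not pass the filter, and its mean log2(CPM + 1) was 2.06 on day 3 and 0.82 on day 0, a difference of 1.24 (exact permutation p = 0.016, two-sided). It has 5 pseudogenes with near copies, so its level is uncertain too.

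Lmnb1 (ENSMUSG00000024590, chr18:56707813-56753424, plus strand), the B-type lamin of the nuclear envelope, had 12.0, 34.4 and 19.7 CPM in CCl4 livers, against 3.01, 3.05 and 2.36 CPM in olive oil livers. It rose by 2.95 ± 0.41 (adjusted p = 0.001), and its CCl4 samples were the most spread of the 10 genes, with an SD of 11.4 CPM. After partial hepatectomy, day 3 livers 12 to 16 had 8.38, 8.56, 9.94, 12.0 and 11.5 CPM, against 3.87, 4.7, 4.26, 2.78 and 2.71 CPM in day 0 livers 12 to 16. The groups did not overlap in either experiment. Lmnb1 rose on day 3 by 1.46 ± 0.27 (adjusted p = 0.00032).

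The samples also differed within a group. Summed over the 10 genes, CCl4 livers 1 to 3 had 149, 221 and 164 CPM, against 32.1, 35.5 and 33.2 CPM in olive oil livers. CCl4 replicate 2 was the highest of its group in 8 genes and replicate 1 the lowest in 6. Without CCl4 replicate 1 all 10 genes were called higher, at log2 fold changes between 1.43 for Dnmt1 and 5.03 for Uhrf1. In that fit 14.3% of all genes tested were called higher and 15.6% lower. Leaving out CCl4 replicate 2 or olive oil replicate 1 gave 8 of the 10 genes, beside 6.88% and 6.7% of all genes called higher. Day 3 livers 12 to 16 had sums of 65.2, 71.9, 90.1, 91.3 and 88.7 CPM, against 39.3, 34.1, 28.2, 34.5 and 27.4 CPM in day 0 livers 12 to 16. Neither pair of groups overlapped in this sum.

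Markers of dividing cells moved with the genes. The 12 markers, among them Mki67, Top2a and Mcm2, summed to 498 to 848 CPM in CCl4 livers, against 26.1 to 40.5 CPM in olive oil livers, and 12 of 12 were called higher, with a median log2 fold change of 4.59. They summed to 186 to 352 CPM on PH day 3, against 31.6 to 57.9 CPM on PH day 0, and 11 of 12 were called higher, with a median of 3.92. The medians of the 10 genes were 2.71 after CCl4 and, for the 7 tested, 1.17 after partial hepatectomy. The second median leaves out Hells, Asf1b and Hmgb2, which had 2.66, 3.42 and 2.00 in the fit without the filter. Both medians are therefore not over the same genes. Mki67, a marker of cycling cells, had 126 ± 61.8 CPM in CCl4 livers and 1.94 ± 0.493 CPM in olive oil livers (SD, n = 3 each). Its mean was 56 ± 20.2 CPM on PH day 3 and 1.92 ± 1.97 CPM on PH day 0 (SD, n = 5 each). The part of cell division in the responses of the 10 genes was not tested.

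**Figure D3:**
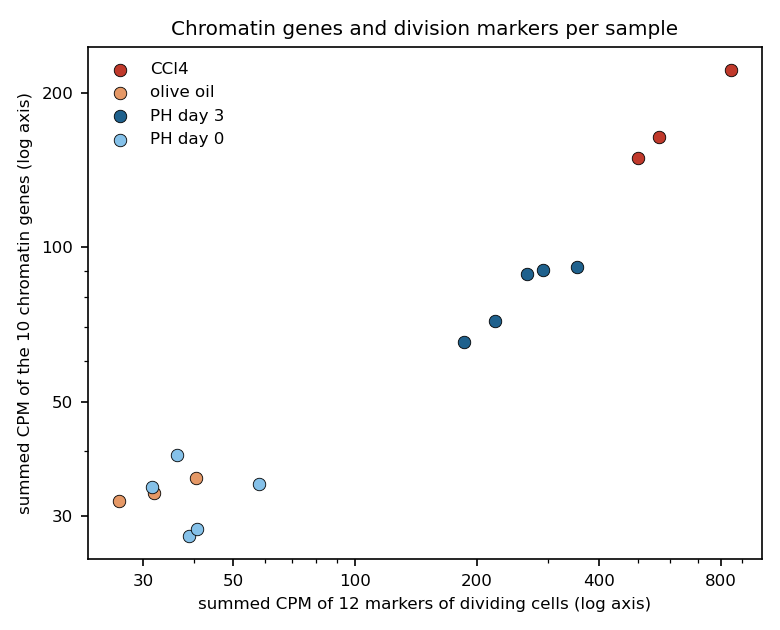
Summed CPM of the 10 chromatin genes (y axis, log scale) against summed CPM of 12 markers of dividing cells (x axis, log scale), a point per liver sample. The 3 CCl4 samples lie at the upper right (149 to 221 CPM of the 10 genes), the 5 PH day 3 samples between (65.2 to 91.3 CPM), and the olive oil and PH day 0 samples at the lower left (27.4 to 39.3 CPM).

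Markers of some other liver cells moved as well. Beside the counts called here and among the dividing markers, 11.3% of all genes tested were called higher and 11.6% lower after CCl4. After partial hepatectomy these shares were 9.73% and 8.01%. Of 9 genes of stellate cells and myofibroblasts, 5 were called higher after CCl4 (370 to 953 CPM summed, against 159 to 193 in olive oil) and 4 after partial hepatectomy (248 to 759 CPM on day 3, against 146 to 274 on day 0). Of the tested markers of macrophages and monocytes, 3 of 8 were called higher after CCl4 (280 to 398 CPM, against 124 to 353 in olive oil, where Ly6c2 was at 0) and 0 of 6 after partial hepatectomy (144 to 274 CPM on day 3, against 159 to 232 on day 0). Biliary markers summed to 174 to 297 CPM in CCl4 livers, against 53.9 to 107 CPM in olive oil livers, and to 138 to 244 CPM on PH day 3, against 79 to 180 CPM on PH day 0, and 1 of the 2 tested was called, higher after CCl4. Lymphocyte markers stayed below 10 CPM in sum in each sample. Of the erythroid markers, 5 of 5 tested were called lower after CCl4 (133 to 245 CPM, against 435 to 516 in olive oil) and 1 of 5 after partial hepatectomy (685 to 1873 CPM on day 3, against 757 to 2063 on day 0). Neutrophil markers summed to 1.98 to 56 CPM in CCl4 livers, against 0.251 to 14.8 CPM in olive oil livers, where Ly6g and Camp were at 0, and to 2.02 to 10.6 CPM on PH day 3, against 0.678 to 1.39 CPM on PH day 0, without overlap, where Ly6g and Mpo were at 0 in both groups and Ngp on day 0. Of 7 neutrophil markers, 2 were tested after CCl4 and 0 called, and none passed the filter in the PH comparison. Of 8 endothelial markers, 1 was called higher after CCl4 and 2 lower after partial hepatectomy. Which cells carried the RNA of the 10 genes was not tested.

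The order of the 4 groups was alike across the genes. Mean CPM was highest in the CCl4 group for all 10 genes. The CCl4 samples lay above all PH day 3 samples for 7 genes and overlapped them for Ezh2, H2afz and Hmgb2, beside 7.57% of the 11868 genes tested with CCl4 above, and these values come from separate experiments. The olive oil and PH day 0 samples overlapped for all 10. Set side by side per length, as TPM (transcript counts per length, scaled to a fixed total per sample), H2afx led the 10 genes in each group, with 28 ± 4.78 TPM in CCl4 livers, 5.45 ± 3.13 TPM in olive oil livers, 16.9 ± 2.27 TPM on PH day 3 and 5.76 ± 2.66 TPM on PH day 0 (SD, n = 3, 3, 5 and 5). Near copies in other genes make the level of H2afx uncertain. Uhrf1 was behind H2afx and Lmnb1 in the CCl4 group, at 18 ± 8.19 TPM, and above Hmgb2 and Hells alone in the olive oil group, at 0.344 ± 0.339 TPM. Dnmt1 came next after Uhrf1 in the CCl4 group, at 16.2 ± 1.17 TPM, and next after H2afx in the olive oil group, at 3.39 ± 0.306 TPM.

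The difference between both responses was tested in a fit of all 16 samples, in which 5.33% of 11868 genes were called, 1.47% with a higher log2 fold change after CCl4 and 3.87% with a lower one. Of the 10 genes, 2 were called, both with a higher one after CCl4. Dnmt1 rose more after CCl4 than after partial hepatectomy, by 1.01 ± 0.23 on the log2 scale (adjusted p = 0.011), and this call held in 22 of 23 alternatives, at adjusted p between 0.0032 and 0.032, and was lost only at a threshold of 0.01. Lmnb1 differed by 1.52 ± 0.45 (adjusted p = 0.049), and 17 of 23 alternatives lost the call. Leaving out CCl4 replicate 2, its highest sample, gave 1.04 (adjusted p = 0.21), and limma-voom gave an adjusted p of 0.2.

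For the other 8 genes no difference was called. Hells differed by 2.26 ± 0.93 (adjusted p = 0.18), Hmgb2 by 2.20 ± 0.98 (adjusted p = 0.21) and Uhrf1 by 1.17 ± 0.86 (adjusted p = 0.5). H2afz differed by 0.12 ± 0.58 (adjusted p = 0.94), which turned to -0.31 without CCl4 replicate 3 and -0.13 without olive oil replicate 1. Asf1b was the only gene with a negative value in the fit of all samples, at -0.66 ± 0.87 (adjusted p = 0.75). The headers place the injection samples and the PH samples in separate experiments, so experiment and kind of response cannot be told apart in these differences.

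Ratios of a gene to a partner in the same sample use no library scaling, and 11 pairs were compared in each experiment, 22 tests in all, with counts per kb. Because 0.5 was added to each count, ratios of genes with few reads depend partly on that value and on depth. In PH day 0 samples Uhrf1 held 11 reads in sum and Asf1b 7, with 3 samples at 0. The size of their ratio differences after partial hepatectomy is therefore uncertain. After CCl4 the groups did not overlap in 9 of 11 ratios, but 3 against 3 samples cannot go below an exact permutation p of 0.1. For single genes, each CCl4 sample lay above each olive oil sample in 21.8% of the 11337 genes tested. The share among other pairs of genes was not tested. The ratios reuse the counts of genes described above, so the 9 are not separate evidence of a response. After partial hepatectomy 4 ratios were called, each at an exact permutation p of 0.0079 (adjusted p = 0.044), and all 4 were higher on day 3. The tests took the samples as unpaired. If equal numbers mark the same animal, a paired permutation could not reach a p this small. None of them kept the call with 1 day 3 or day 0 sample left out, where adjusted p was 0.058 to 0.087. Fewer samples raise the smallest permutation p, so these smaller designs cannot decide how stable the 4 ratios are.

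Uhrf1 was higher relative to Dnmt1 in both experiments. The log2 ratio was 0.05 ± 0.61 in CCl4 livers and -3.44 ± 1.24 in olive oil livers (SD, n = 3 each), a difference of 3.49. On PH day 3 it was -0.86 ± 0.25, against -4.28 ± 1.34 on PH day 0 (SD, n = 5 each), a called difference of 3.42. All 3 CCl4 samples lay between -0.60 and 0.60, and the highest value in a control group was -2.01, in PH day 0. Against its paralog Uhrf2, Uhrf1 was higher by 4.72 after CCl4 and by 3.76 after partial hepatectomy, where the difference was called. Uhrf2 itself had 36.9 ± 10.7 CPM in CCl4 livers and 29 ± 4.55 CPM in olive oil livers, and was not called in either comparison.

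**Figure D4:**
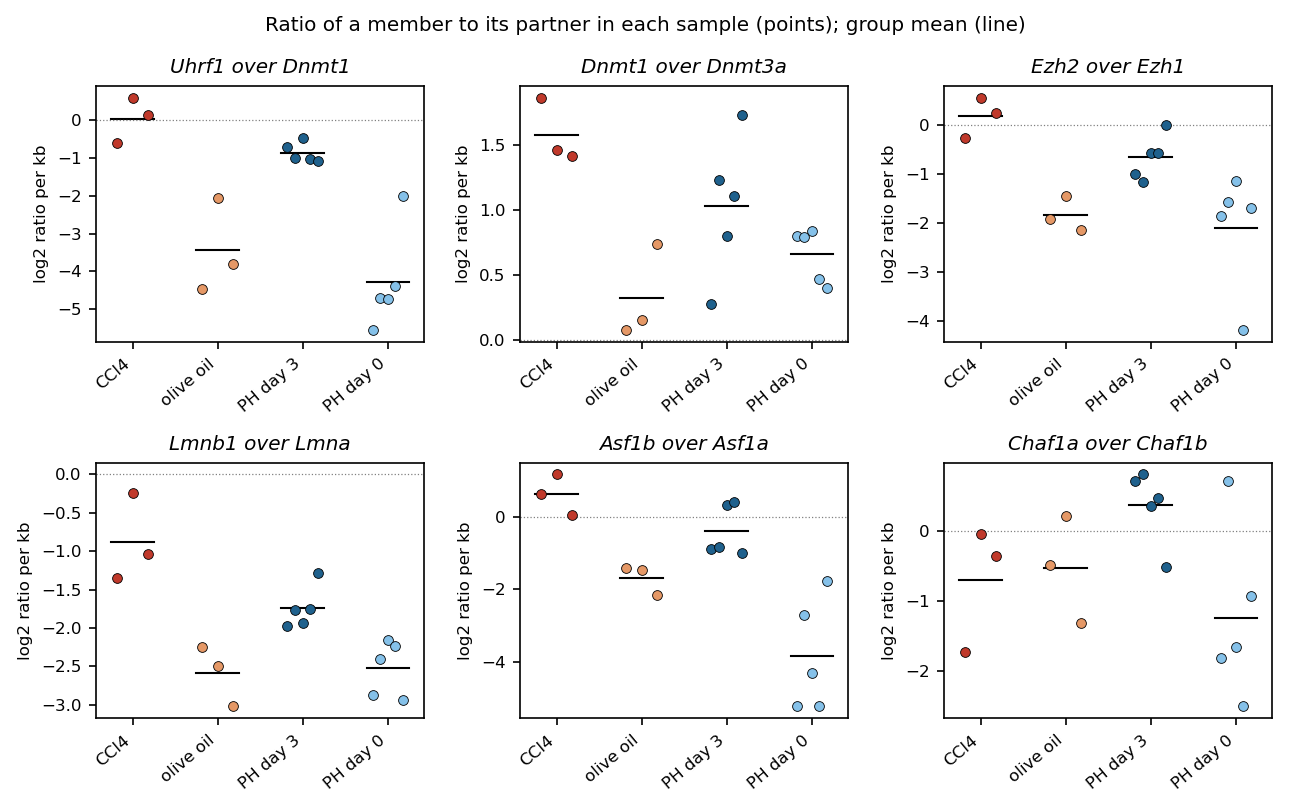
The log2 ratio of counts per kb (y axis) of 6 gene pairs by group (x axis), with a point per sample and a line for the group mean. Uhrf1 over Dnmt1 and Asf1b over Asf1a do not overlap between treated and control groups in either experiment, whereas Dnmt1 over Dnmt3a overlaps after partial hepatectomy and Chaf1a over Chaf1b overlaps in both.

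The maintenance enzyme was also higher relative to the de novo methyltransferase Dnmt3a after CCl4. Their log2 ratio was 1.58 ± 0.25 in CCl4 livers and 0.33 ± 0.36 in olive oil livers, without overlap, a difference of 1.25. It was 1.03 ± 0.54 on PH day 3 and 0.66 ± 0.20 on PH day 0, where the groups overlapped and the difference of 0.37 was not called (exact permutation p = 0.19, adjusted p = 0.22). Dnmt3a had 30.8 ± 1.73 CPM in CCl4 livers and 25.6 ± 5.89 CPM in olive oil livers, and was called in neither comparison.

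Among the pairs of alternative subunits, Asf1b over Asf1a was higher by 2.31 after CCl4 and by 3.46 after partial hepatectomy, where it was called. Asf1a, the form not tied to division, had 9.02 ± 1.6 CPM in CCl4 livers and 6.58 ± 2.41 CPM in olive oil livers. Lmnb1 over Lmna, the A-type lamin gene, was higher by 1.71 after CCl4 and by 0.77 after partial hepatectomy, which was called. Lmna itself rose, by 1.07 ± 0.17 (adjusted p = 0.0015) and 0.72 ± 0.11 (adjusted p = 5.6e-05).

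Ezh2 over Ezh1, the Polycomb enzyme of resting cells, differed by 2.02 after CCl4, without overlap, and by 1.43 after partial hepatectomy (exact permutation p = 0.016, adjusted p = 0.07). Ezh1 had 16.3 ± 1.89 CPM in CCl4 livers and 15.8 ± 2.84 CPM in olive oil livers, and was called in neither comparison. The CAF-1 subunits Chaf1a and Chaf1b had a log2 ratio that differed by -0.18 after CCl4 (exact permutation p = 0.8; 0.33 without CCl4 replicate 1 and 0.19 without olive oil replicate 2) and by 1.6 after partial hepatectomy (exact permutation p = 0.04, adjusted p = 0.097). Hells over Cdca7, the zinc-finger partner of HELLS, differed by 2.36 and 2.62, H2afz over H2afv, the gene of the other H2A.Z form, by 1.10 and 0.98, and Hmgb2 over Hmgb1 by 3.71 and 1.76. None of these 3 was called after partial hepatectomy (adjusted p = 0.087 for each). H2afx over H2afz differed by 0.77 and 0.24, with overlap in both experiments.

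The wider chromatin machinery was described over 129 other genes in 8 lists. After CCl4, 36 of 116 tested genes were called higher (31%, beside 11.3% of all genes) and 5 lower (beside 11.6%), with a median log2 fold change of 0.34. After partial hepatectomy 10 of 105 were called higher (9.52%, beside 9.73% of all genes) and 2 lower (beside 8.01%), with a median of 0.10. In the difference between the responses 9 of 117 were called higher and 1 lower (beside 1.47% and 3.87% of all genes). The counts in each list below are to be read beside the same shares of all genes.

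**Figure D5:**
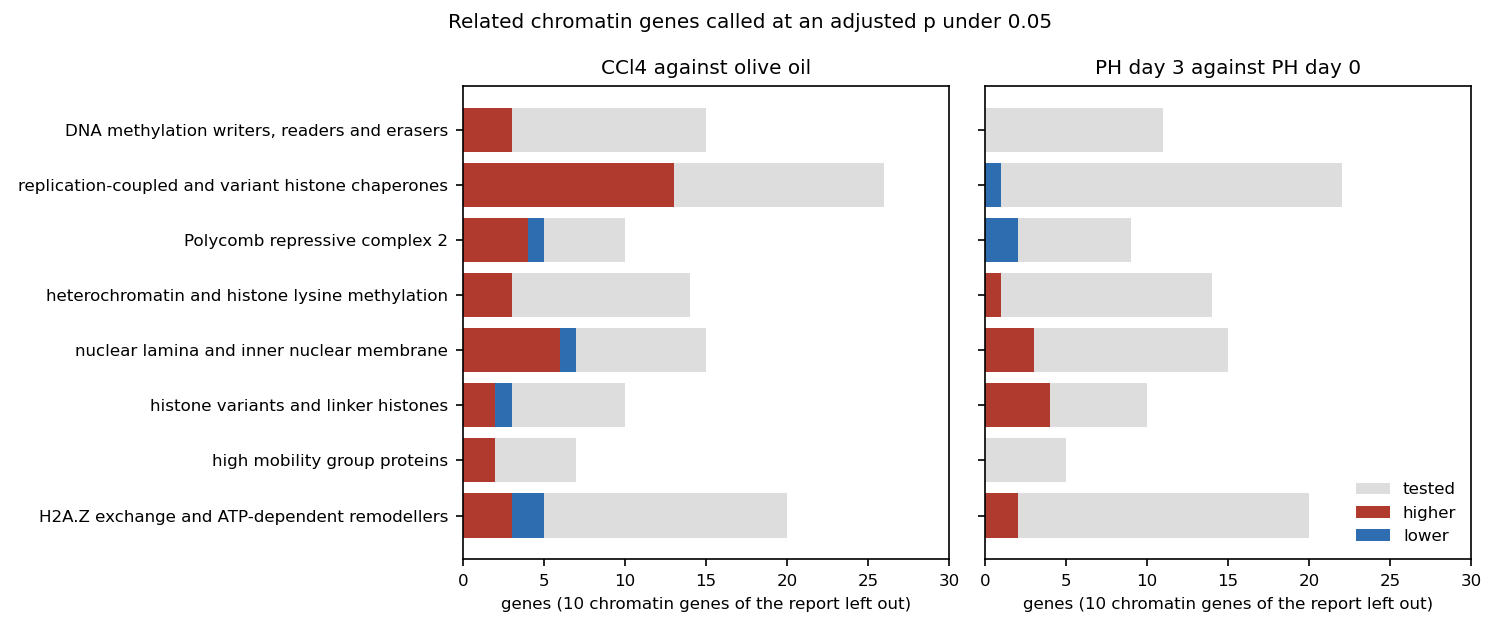
Number of genes (x axis) tested, called higher and called lower in 8 lists of related chromatin genes (y axis), after CCl4 against olive oil on the left and on PH day 3 against PH day 0 on the right. Histone chaperones have the most genes called higher after CCl4 (13 of 26) and none called higher after partial hepatectomy (0 of 22).

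Of the histone chaperones and their partners, 13 of 26 were called higher after CCl4, and none higher and 1 lower of 22 after partial hepatectomy. Hat1, which acetylates newly made histone H4, averaged 29 ± 4.09 CPM in CCl4 livers and 6.19 ± 0.957 CPM in olive oil livers, and rose by 2.19 ± 0.22 (adjusted p = 0.00016). It averaged 10.3 ± 1.63 CPM on PH day 3 and 7.87 ± 1.79 CPM on PH day 0 (0.43 ± 0.23, adjusted p = 0.22), and its responses differed by 1.80 ± 0.31 (adjusted p = 0.0011). Anp32e, a chaperone that removes H2A.Z, rose by 1.25 ± 0.16 after CCl4 (adjusted p = 0.00063), had a log2 fold change of 0.13 ± 0.16 after partial hepatectomy (adjusted p = 0.65) and differed by 1.16 ± 0.24 (adjusted p = 0.0052). Ssrp1, a subunit of the FACT chaperone, differed by 0.78 ± 0.19 (adjusted p = 0.018). Rbbp4, a histone-binding subunit of CAF-1 and of Polycomb repressive complex 2, was the chaperone gene that fell after partial hepatectomy, by 0.72 ± 0.12 (adjusted p = 0.00011), with 79.1 ± 10.1 CPM on day 3 and 133 ± 23.9 CPM on day 0. Hira, a chaperone of variant histone H3.3, had log2 fold changes of 0.56 ± 0.35 after CCl4 (adjusted p = 0.29) and 0.80 ± 0.30 after partial hepatectomy (adjusted p = 0.072).

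Genes of DNA methylation were called higher in 3 of 15 cases after CCl4 and in 0 of 11 after partial hepatectomy. They were Cdca7l, with a log2 fold change of 3.42 ± 0.65 (adjusted p = 0.0042), Cdca7, with 2.28 ± 0.55 (adjusted p = 0.014), and the de novo methyltransferase Dnmt3b, with 1.80 ± 0.50 (adjusted p = 0.027). Dnmt3b had 4.8 ± 1.61 CPM in CCl4 livers and 1.35 ± 0.447 CPM in olive oil livers. Usp7, a deubiquitinase of the UHRF1 and DNMT1 proteins, was not called after partial hepatectomy, at -0.23 ± 0.11 (adjusted p = 0.19).

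Of Polycomb repressive complex 2, 4 of 10 genes were called higher and 1 lower after CCl4, and 2 of 9 lower after partial hepatectomy. Rbbp7, a histone-binding subunit, rose by 0.88 ± 0.16 after CCl4 (adjusted p = 0.0033). The accessory subunit Phf1 fell in both comparisons, by 0.79 ± 0.21 after CCl4 (adjusted p = 0.022) and by 0.72 ± 0.24 after partial hepatectomy (adjusted p = 0.039), opposite to Ezh2. Rbbp4 was the other gene that fell after partial hepatectomy.

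Of heterochromatin genes, 3 of 14 were called higher after CCl4 and 1 of 14 after partial hepatectomy. Kmt5a, which monomethylates histone H4, rose in both, by 0.72 ± 0.17 (adjusted p = 0.013) and 0.83 ± 0.12 (adjusted p = 2.3e-05). Suv39h1, a methyltransferase of lysine 9 of histone H3, rose by 1.77 ± 0.34 after CCl4 (adjusted p = 0.0047) and had 0.68 ± 0.26 after partial hepatectomy (adjusted p = 0.079).

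Of the nuclear lamina and inner nuclear membrane, 6 of 15 genes were called higher and 1 lower after CCl4, and 3 of 15 higher after partial hepatectomy. Tmpo, which encodes LAP2, a lamin-binding protein, averaged 116 ± 35.3 CPM in CCl4 livers and 32.6 ± 1.33 CPM in olive oil livers, and 60.6 ± 6.49 CPM on PH day 3 and 34.3 ± 6.25 CPM on PH day 0. It rose by 1.80 ± 0.22 (adjusted p = 0.00044) and by 0.83 ± 0.13 (adjusted p = 3.1e-05), and the responses differed by 1.00 ± 0.24 (adjusted p = 0.013).

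Histone variants were called higher in 2 of 10 cases and lower in 1 after CCl4, and higher in 4 of 10 after partial hepatectomy. Cenpa, the histone of the centromere, rose by 2.65 ± 0.48 (adjusted p = 0.0089) and by 2.07 ± 0.26 (adjusted p = 4e-06), and H3f3b, a gene of histone H3.3, by 0.83 ± 0.17 (adjusted p = 0.0059) and 0.54 ± 0.11 (adjusted p = 0.001). Of high mobility group genes, 2 of 7 rose after CCl4 and 0 of 5 were called after partial hepatectomy. Hmgn1, a nucleosome-binding protein, rose by 1.21 ± 0.20 after CCl4 (adjusted p = 0.0023) and differed between the responses by 0.94 ± 0.24 (adjusted p = 0.019), and Hmga1 rose by 1.38 ± 0.39 (adjusted p = 0.028). Hmgn5 had 0.33 ± 0.16 after partial hepatectomy (adjusted p = 0.16).

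Of the remodellers, 3 of 20 were called higher and 2 lower after CCl4, and 2 of 20 higher after partial hepatectomy. Atad2, a bromodomain ATPase, rose in both, by 3.67 ± 0.33 (adjusted p = 7.9e-05) and 2.05 ± 0.32 (adjusted p = 4.5e-05). Smarca2, the ATPase BRM, fell by 0.85 ± 0.14 after CCl4 (adjusted p = 0.0023), with 63.5 ± 8.76 CPM in CCl4 livers and 113 ± 7.65 CPM in olive oil livers. Chd1 rose by 0.41 ± 0.14 after partial hepatectomy (adjusted p = 0.048).

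Likeness of pattern was measured as Pearson's r of log2(CPM + 1) over the 16 samples, a description in which groups and libraries are shared. Among the 10 genes the median r of a gene with the other 9 was between 0.71 for H2afz and 0.88 for Uhrf1 and Hells. Over the 9344 other genes with a mean of at least 5 CPM, Dnmt1 was most like Mcm7 (r = 0.952), a subunit of the replicative helicase, Topbp1 (r = 0.942), a replication and checkpoint protein, and Tubb5 (r = 0.937), a tubulin gene. Uhrf1 was most like Lig1 (r = 0.974), the ligase that joins Okazaki fragments, Atad2 (r = 0.966) and Tacc3 (r = 0.961), a protein of the mitotic spindle. Lig1 ran between 27.6 and 39.2 CPM in CCl4 livers, against 1.41 to 3.05 CPM in olive oil livers, and between 7.02 and 15.2 CPM on PH day 3, against 0.678 to 3.25 CPM on PH day 0.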

How the data were processed

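Liver RNA of 16 samples was sequenced as Illumina mRNA libraries, from snap-frozen tissue with an RNA integrity number of at least 8, per the labels' protocols. The authors deposited raw counts per gene with the exon length of each gene, made with featureCounts 1.6.2 over Ensembl release 95 (strand setting 2, multi-mapping and multi-overlapping reads not counted), per the file headers. GRCm38, STAR 2.5.1 and Subread are named per the submitters' processing notes. Symbols and coordinates came from GENCODE M21, which matched 54809 of 54838 identifiers.

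Low counts were filtered with filterByExpr. It asks for the CPM of 10 counts at the median library size in as many samples as the smallest group holds, and a total of 15 counts. The main test was the robust quasi-likelihood test of edgeR 4.0.16 with TMM scaling (R 4.3.3), with p-values adjusted over all genes tested by Benjamini and Hochberg's method. Each experiment had its own fit, and their difference came from a fit of the 4 groups. SE is the absolute log2 fold change over the square root of F. Ratios used counts per kb plus 0.5 and two-sided exact permutation tests, adjusted over 22 tests. TPM used the deposited lengths. For genes below the filter, an exact permutation test of log2(CPM + 1) was added after seeing the data. All permutation tests took PH day 0 and day 3 samples as unpaired, although the labels do not say whether equal numbers mark the same animal. No paired permutation was run. Alternatives were other scalings and filters, limma-voom (3.58.1), DESeq2 (1.42.0), an adjusted p under 0.01, a replicate block and leaving out each replicate. Scripts were tested on simulated data. The upper limits given for zeros cover counting error only, whereas SE and SD include the spread between samples.

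The 10 genes and the related and marker lists were chosen with earlier results of these data known. Genes named are the 10, their partners, the 2 genes of smallest adjusted p per related list and main comparison, up to 5 related genes of smallest adjusted p in the difference, and the 3 genes most alike to Dnmt1 and Uhrf1. Dnmt3b was named after its values were seen, and 1 gene that this rule names is not reported here.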

Additional observations from a re-analysis of the deposited data

Results flagged for a closer look

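Among the 20 groups of 5 PH samples examined for a sample far from the others, 2 held one, and chance marks about 1 in 20. In the PH day 3 group, replicate 14 had the highest Uhrf1 level, 9.01 CPM, with a gap to the next sample of 0.728 of the range of the group. In the PH day 0 group, replicate 15 had the highest Uhrf1 level, 1.62 CPM, with a gap of 0.836 of the range.

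Responses that differed between CCl4 and partial hepatectomy, by the test of the difference itself, were those of Dnmt1 (1.01 on the log2 scale) and Lmnb1 (1.52) among the 10 genes. Among the named related genes they were Chaf1b (2.35), Hat1 (1.80), Atad2 (1.65), Anp32e (1.16), Tmpo (1.00), Hmgn1 (0.94), Ssrp1 (0.78), Rbbp7 (0.68) and Smarca2 (-0.59). A positive value means a higher log2 fold change after CCl4.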

How the results depend on the processing

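Low counts limit the 10 genes, since olive oil and PH day 0 samples often held under 10 reads of a gene. Of 1774 recomputed values for single genes and ratios, 1587 kept their direction and their side of the threshold, 137 lost the call, 13 gained it and 37 changed sign, none of them called in either fit. Scaling by library size alone moved the median of all genes to 0.46 after CCl4, 0.13 after partial hepatectomy and 0.30 in the difference, and calls were then 87.5%, 78.9% and 75.9% higher, against 49.2%, 54.8% and 27.5%. It called 26.2% of the genes tested higher and 3.73% lower after CCl4 (11.3% and 11.6% in the TMM fit), 15.3% and 4.1% after partial hepatectomy (9.73% and 8.01%) and 4.05% and 1.29% in the difference (1.47% and 3.87%). An adjusted p under 0.01 gave 5.35% and 5.74%, 5.78% and 4.55%, and 0.329% and 1.82% in the same order, with 4 of the 10 genes called after partial hepatectomy and 0 in the difference. Without a filter, where more genes were tested, 4.88% were lower after partial hepatectomy, and 0.825% and 1.95% were higher and lower in the difference. DESeq2 called 2.35% higher in the difference. There RLE scaling, a filter of 1 CPM and limma-voom each called 1 of the 10 genes, Dnmt1, beside 1.42%, 1.22% and 1.2% of all genes called higher.

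Leaving out 1 sample gave 5.98% to 14.3% of genes higher and 6.67% to 15.6% lower after CCl4, with 8 to 10 of the 10 genes called. The shares moved by over 1.5 times without CCl4 replicate 2 (6.88% and 7.24%), olive oil replicate 1 (6.7% and 7.08%) or olive oil replicate 3 (5.98% and 6.67%). After partial hepatectomy the ranges were 8.24% to 9.47% and 6.7% to 7.43%, with 5 to 8 of the 10 genes called. In the difference they were 0.654% to 2% and 2.48% to 5.63%, with 1 to 2 of the 10 genes called, and the same 3 samples gave 0.818%, 0.797% and 0.654% higher. Ratios called were 0 to 4.

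Sign changes came from values near 0. Leaving out 1 sample gave, after CCl4, -0.11 to 0.15 for Ezh1, -0.39 to 0.23 for H2afv, -0.07 to 0.28 for Hmgb1 and -0.57 to 0.33 for the log2 ratio of Chaf1a to Chaf1b. After partial hepatectomy it gave -0.07 to 0.26 for Asf1a and -0.05 to 0.21 for H2afv. In the difference it gave -0.31 to 0.44 for H2afz, -0.10 to 0.21 for Dnmt3a, -0.01 to 0.26 for Ezh1, -0.40 to 0.19 for H2afv and -0.31 to 0.04 for Hmgb1. Library size scaling turned H2afv to 0.48 after CCl4 and 0.30 in the difference, Ezh1 to 0.07 after partial hepatectomy and Hmgb1 to 0.13 in the difference. RLE scaling and the fit of the 4 groups gave H2afv 0.00 and 0.01 after CCl4.

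Same-numbered PH samples correlated between -0.051 and 0.121 in their deviations, over 0.1 in 1 of 5 pairs, so the numbers were not taken as pairs, although 3 of 5 day 3 samples correlated best with their own number. With the replicate block, 9.8% of all genes tested were called higher and 7.87% lower after partial hepatectomy. There 6 of the 10 genes were called, H2afz giving 1.02 (adjusted p = 0.074), and Chd1 gave 0.40 (adjusted p = 0.057). The cause of these changes was not tested.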
